A study of Mus musculus with 104 samples.

Results

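The comparison described here is the change in gene expression of primary mouse hepatocytes (PMH) from 0.1 to 50 nM of transfected siRNA, as far as it was shared by 6 siRNAs. All 24 libraries of D1 to D6 at 50 nM were compared with all 24 libraries of the same siRNAs at 0.1 nM, so that 48 of the 104 libraries of the series entered. D1, D2 and D3 target Hao1, and D4, D5 and D6 target Ttr. D1 and D4 are the parent siRNAs, D2 and D5 carry one glycol nucleic acid nucleotide (GNA-C at guide position 5 and GNA-G at guide position 6), and D3 and D6 carry the GNA isonucleotides isoC and isoG at the same positions. All are chemically modified duplexes with the liver-directed GalNAc ligand, and all groups received the transfection reagent Lipofectamine RNAiMax and were collected after 24 h, with 4 libraries for each siRNA and dose. PMH are hepatocytes isolated from mouse liver and cultured without prior passage as a line, and nothing in the labels says that the wells of a group came from separate animals, so that p-values measure the spread between libraries, which may be technical. The 8 mock libraries and the doses of 1 and 10 nM were left out of the main test and are given beside it.

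An siRNA is a short RNA duplex whose guide strand is loaded into an Argonaute protein and directs it to messenger RNAs, fully paired ones for cleavage and ones matched to the guide's seed for weaker repression. Seed effects differ with the guide sequence, whereas occupation of Argonaute, sensing of RNA and transfection itself can act for any duplex. Hepatocytes in culture are known to lose some liver functions, to take on epithelial and cytoskeletal genes and to re-enter the cell cycle in part. Many genes of mitosis are switched on late in the cell cycle by the transcription factor FOXM1 and by the MuvB complex, which binds a short promoter element named CHR (cell cycle genes homology region).

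That element was found in the promoters of many of the largest falls described here, so the promoters in which it lay nearest to the start are shown first. Each line is a 30-base stretch, 5′ to 3′ on the gene's strand, from RefSeq promoters of GRCm38.p6 (the counts themselves are on GRCm39). The capitals mark the CHR letters TTTGAA, or TTCAAA where they lie on the other strand. The element was chosen after the genes that fell had been seen, and a match of letters does not show binding.
Ccnb2, chr9:70421533-70421562, minus strand: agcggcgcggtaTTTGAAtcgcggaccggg
Cdc20, chr4:118437344-118437373, minus strand: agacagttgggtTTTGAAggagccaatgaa
Cenpa, chr5:30666890-30666919, plus strand: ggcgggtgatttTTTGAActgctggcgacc
Cenpf, chr1:189688067-189688096, minus strand: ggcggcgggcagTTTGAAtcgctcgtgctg
Hmmr, chr11:40733412-40733441, minus strand: agttgaggtaaaTTTGAAttcaggcgagct
Prr11, chr11:87108694-87108723, minus strand: caaagatttaatTTTGAAattttctttatg
Plk1, chr7:122159453-122159482, plus strand: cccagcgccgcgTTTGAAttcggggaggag
Ube2c, chr2:164769888-164769917, plus strand: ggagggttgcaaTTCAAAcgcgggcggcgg

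The libraries held 3623954 to 5691251 gene counts at 50 nM and 4570355 to 6160626 at 0.1 nM. The hepatocyte markers were detected at both doses, with a summed level of 16802 to 21479 CPM (counts scaled to a common library total) at 0.1 nM and 16429 to 21721 CPM at 50 nM. Of the 12 Kupffer cell and macrophage markers 11 stayed below 1 CPM at both doses, as did 10 of 11 stellate cell and fibroblast markers, 8 of 9 lymphocyte markers and 7 of 10 sinusoidal endothelial markers, and Clec4f, Vsig4, Cd5l and Marco had no count in any of the 48 libraries. Of the marker genes that were tested, 2 of 10 for hepatocytes were called higher (Alb and Asgr1) and 3 lower (Apob, Hnf4a and Tat), Reln and Stab1 of the stellate and endothelial lists were lower, and Cd68 and Cd3e did not pass the test. With ERCC library sizes 5 of the hepatocyte markers were called, all lower, beside 147 higher and 1314 lower of all 11142 genes tested. F12, which encodes a clotting factor, and Gapdh, which encodes a glycolytic enzyme, changed by 0.15 ± 0.035 (log2, adjusted p = 0.000653) and −0.12 ± 0.023 (adjusted p = 5.03e-05). Total counts did not pass the test between the doses (mean of 4780096 against 5079942, permutation test within siRNA, two-sided, adjusted p = 0.0536), nor did the share of ERCC spike-in counts (0.685% against 0.611%, adjusted p = 0.208) or the number of genes detected (16538 against 16553, adjusted p = 0.906). The share of mitochondrial counts was higher at 50 nM (3.44% against 3.22%, adjusted p = 0.00904), and its part in the results below was not tested. In bulk RNA, fewer cells of a type and less RNA per cell cannot be told apart.

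The 0.1 nM libraries were not untreated, since both targets were already lowered there. Hao1, which encodes the peroxisomal glycolate oxidase, had a mean of 12.2 ± 2.39 (SD, n = 4), 13.8 ± 0.453 and 6.84 ± 2.24 CPM with D1, D2 and D3 at 0.1 nM, and 2.26 ± 2.03, 1.74 ± 0.509 and 0.799 ± 0.386 CPM at 50 nM, against 33.7 ± 3.81 CPM in the 8 mock libraries. Ttr, the thyroid hormone and retinol carrier transthyretin, was at 2.84 to 5.74 CPM with D4 and 2.71 to 5.79 CPM with D6 at 0.1 nM, and at 0.602 to 2.08 and 0.803 to 1.73 CPM at 50 nM, against 540 to 723 CPM in mock. Replicate 2 of D5 at 0.1 nM stood apart with 73.4 CPM of Ttr, where the median of that group was 2.94 CPM. Without this library, 3628 genes passed the test of 50 against 0.1 nM, and 925 were shared by both target families in the sense given below, against 3553 and 905 with it. Both targets also moved with the siRNAs that do not target them. Hao1 fell with the Ttr siRNAs (log2 fold change of −0.48, adjusted p = 2.91e-05, edgeR quasi-likelihood test), from means of 29.4, 31.4 and 29.2 to 19.4, 25.0 and 21.3 CPM with D4, D5 and D6. Ttr rose with the Hao1 siRNAs (log2 fold change of 0.59, adjusted p = 4.45e-13), from means of 630, 637 and 610 to 1024, 827 and 969 CPM with D1, D2 and D3.

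Between 0.1 and 50 nM, 3553 of the 11142 genes tested changed at an adjusted p under 0.05 with siRNA as a block, which is 31.9% of them. Of these, 1644 genes (14.8%) were higher and 1909 (17.1%) were lower at 50 nM, and 281 passed a fold of 1.5, 109 upward and 172 downward. Most changes were therefore small, with a median log2 fold change of 0.21 among genes called higher and −0.21 among genes called lower. These values are relative to the TMM-scaled total of each library. Scaled to the ERCC spike-ins, the median of all genes moved to −0.13 on the log2 scale, and 10.1% of the genes called were higher, against 46.3% with the main scaling.

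The 2 target families were also fitted apart, with 12 libraries at each dose, no library in common and different guide sequences. The Hao1 siRNAs changed 2698 genes (24.2%) and the Ttr siRNAs 3211 (28.8%). Both fits called 1137 genes, of which 232 had opposite signs. The 905 genes called in both families with the same sign (8.12% of genes tested) are named the shared genes here: 377 of them (3.38%) were higher and 528 (4.74%) were lower. Their median log2 fold change was 0.30 and −0.35. The same sign was seen in all 6 siRNAs for 310 of the shared higher and 414 of the shared lower genes, which were chosen from the same libraries. Shared did not mean equal: for 186 of the 905, 63 higher and 123 lower, the size of the dose effect differed between the families, a test that called 24.8% of all genes.

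A second pair of doses, 10 and 1 nM, shares no library with the first, and most of the shared genes moved the same way there. Between 1 and 10 nM, 1873 genes (16.8%) changed, 875 (7.85%) higher and 998 (8.96%) lower. Of the 377 shared higher genes, 371 were also above 0 in this comparison and 281 (74.5%) were called higher. All 528 shared lower genes were below 0 and 400 (75.8%) were called lower. Over all genes tested, the sign was the same for 75.2% of those above 0 and 74.2% of those below 0. The median log2 fold change from 1 to 10 nM was 0.18 for the shared higher and −0.20 for the shared lower genes.

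**Figure D1:**
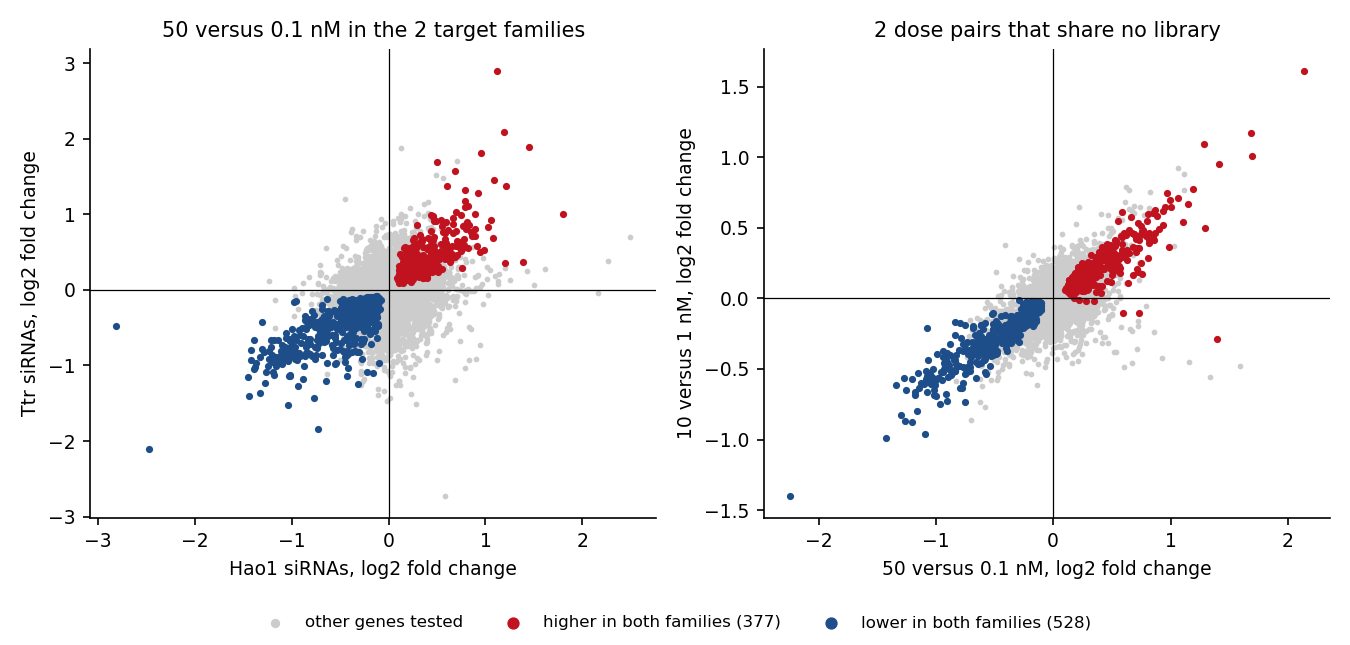
Each point is 1 gene, with the log2 fold change of 50 versus 0.1 nM in the Hao1 siRNAs (x) against the Ttr siRNAs (y) on the left, and 50 versus 0.1 nM (x) against 10 versus 1 nM (y) on the right. The 377 shared higher genes are red, the 528 shared lower genes blue and the other genes tested grey; 371 of the red and all 528 blue genes keep their side of 0 on the right.

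The largest shared falls were genes of mitosis. Of the 15 largest falls that met the rule for named genes (same sign in 6 of 6 siRNAs, a mean of at least 8 CPM), 12 were genes of mitotic entry, the spindle, the kinetochore or mitotic exit, and the other three were Hao1, Igfbp1 and Il1rn. Ccnb1 (ENSMUSG00000041431, chromosome 13 from 100915153 to 100923116 in GRCm39) encodes cyclin B1, the partner of CDK1 that starts mitosis. It had 15.6, 22.3 and 29.0 CPM (lowest, median and highest of 24 libraries) at 0.1 nM and 3.54, 9.22 and 15.6 CPM at 50 nM. The highest library at 50 nM just overlapped the lowest at 0.1 nM, and the 8 mock libraries, at 17.4 to 30.6 CPM, lay among the 0.1 nM libraries. The log2 fold change of Ccnb1 was −1.30 ± 0.096 (SE, adjusted p = 3.18e-15), a 2.46-fold fall. Plk1, the mitotic kinase polo-like kinase 1, went from 23.3, 31.5 and 44.2 CPM to 6.01, 14.8 and 23.6 CPM (log2 fold change −1.18 ± 0.10, adjusted p = 1.94e-12). Only the top of its 50 nM range reached the bottom of the 0.1 nM range.

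Cdc20 and Ube2c, which act at the end of mitosis, fell too. Cdc20, the activator of the anaphase-promoting complex, went from 15.7, 29.2 and 39.0 CPM to 4.84, 12.2 and 22.1 CPM (log2 fold change −1.10 ± 0.11, adjusted p = 2.53e-11). Ube2c, the ubiquitin-conjugating enzyme that works with this complex, went from 20.7, 32.7 and 47.0 CPM to 4.11, 15.7 and 24.5 CPM (−1.20 ± 0.11, adjusted p = 4.30e-12). In both genes the 2 doses overlapped in part. The kinetochore and spindle genes Kif2c, Cenpa, Cenpf, Knl1, Ckap2l and Hmmr, the cell cycle gene Prr11 and the second B-type cyclin Ccnb2 fell by log2 values between −1.07 and −1.26. Each of these genes was lower in all 6 siRNAs, as the rule for named genes required.

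In 4 further cell cycle genes the 24 libraries at 50 nM lay entirely below the 24 at 0.1 nM. Such a lack of overlap held for 11 genes in all (0.0987% of those tested), and Foxm1, Mki67, Bub1 and the other such genes that are not among the 15 largest changes were chosen for naming after their values were seen. Foxm1, the transcription factor of late cell cycle genes, had 34.7, 47.98 and 65.2 CPM at 0.1 nM and 14.7, 23.9 and 34.2 CPM at 50 nM (log2 fold change −1.06 ± 0.078, adjusted p = 7.07e-15). Mki67, which encodes the proliferation marker Ki-67, had 142.4, 177.5 and 249.2 CPM and then 41.4, 88.5 and 141.1 CPM (−1.03 ± 0.093, adjusted p = 1.08e-11). Top2a, the topoisomerase that separates sister chromatids, had 111.1, 132.1 and 166.8 CPM and then 32.7, 70.1 and 106.3 CPM (−0.95 ± 0.079, adjusted p = 1.15e-12). Bub1, a kinase of the spindle checkpoint, had 20.9, 24.4 and 33.6 CPM and then 4.90, 12.7 and 20.4 CPM (−1.02 ± 0.096, adjusted p = 5.73e-12). All 4 lay close to mock at 0.1 nM, with mock medians of 47.5, 169.3, 124.6 and 23.6 CPM.

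Of the 34 cell cycle genes listed, 25 were called lower and 3 higher, against 17.1% and 14.8% of all genes, and their median log2 fold change was −0.46 against 0.00081 for all genes. By family, 18 of the 25 were shared. The genes of the list named next were chosen after their values were seen. Ccna2, a cyclin of S phase and G2, had −1.05 ± 0.10 (adjusted p = 9.76e-11), and the mitotic kinases Aurka and Aurkb had −0.90 ± 0.093 and −0.83 ± 0.089. Among genes of DNA replication, Mcm2 at −0.15, Mcm5 at −0.18 and Mcm6 at −0.21 were called lower, and Mcm3 at −0.039, Mcm7 at −0.12 and Pcna at −0.13 not past the test. The 3 called higher belong to the entry into the cycle from G1: Ccnd2 at 0.79 (at a mean of 3.27 CPM), Ccnd1 at 0.14 and Myc at 0.16, the first 2 of which encode D-type cyclins. Cdkn1a, which encodes the CDK inhibitor p21 and stands on the p53 target list, rose in all 6 siRNAs (log2 fold change 0.24 ± 0.025, adjusted p = 3.18e-11), from 201.9, 220.1 and 261.5 CPM to 230.1, 256.7 and 291.2 CPM. Histones H1f0 (−0.41 ± 0.038) and H2az1 (−0.25 ± 0.052) were the 2 of 10 histone genes called, both lower.

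The level of the whole cell cycle list, taken as the mean log2 CPM of its 34 genes in each library, had a median of 5.54 in mock and, from the lowest dose to the highest, of 5.53, 5.46, 5.17 and 5.05. The range was 5.39 to 5.75 at 0.1 nM and 4.45 to 5.39 at 50 nM. Within each of the 6 siRNAs, the 4 libraries at 50 nM lay below the 4 at 0.1 nM. The difference of the means was −1.02 with D1, −0.30 with D2, −0.60 with D3, −0.51 with D4, −0.28 with D5 and −0.39 with D6. D1 at 10 and 50 nM stood lowest, at 4.63 to 4.81 and 4.45 to 4.58. Leaving out each library in turn gave 24 to 28 members called lower, and leaving out each siRNA gave 21 to 26.

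**Figure D2:**
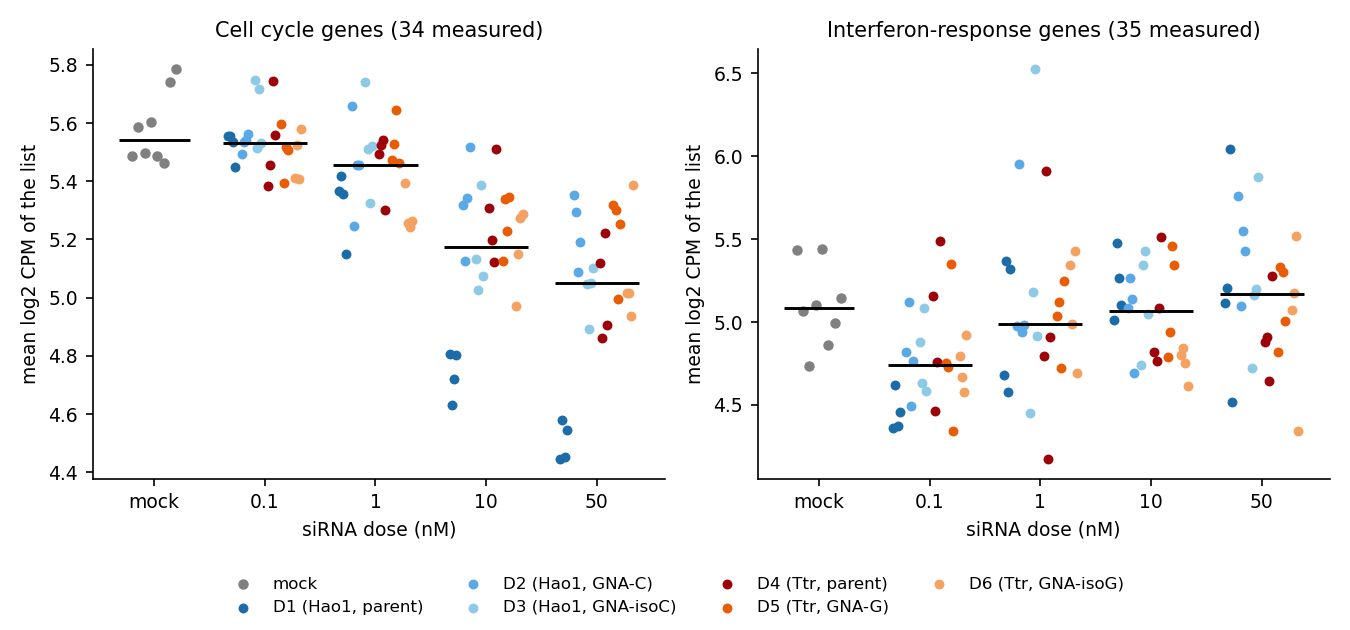
Points are libraries, coloured by siRNA, with the mean log2 CPM of the 34 cell cycle genes (left) and the 35 interferon-response genes (right) on the y axis and the siRNA dose in nM on the x axis; bars are medians. The cell cycle median goes from 5.53 at 0.1 nM to 5.05 at 50 nM with D1 lowest, whereas the interferon-response median goes from 4.74 to 5.17 with wide scatter at every dose.

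Igfbp1 and Il1rn were also among the 15 largest falls. Igfbp1, a secreted protein that binds insulin-like growth factors, had 622.6, 749.2 and 927.3 CPM at 0.1 nM and 99.8, 345.6 and 843.1 CPM at 50 nM (log2 fold change −1.26 ± 0.16, adjusted p = 4.00e-08). Its 50 nM libraries ranged from far below the 0.1 nM libraries to well inside them, with log2 fold changes of −2.61 and −2.42 in D4 and D6, −0.97 and −1.20 in D1 and D3, −0.53 in D5 and −0.030 in D2. Il1rn, the antagonist of the interleukin-1 receptor, had 8.29, 15.0 and 24.9 CPM and then 3.17, 7.57 and 12.1 CPM (−1.08 ± 0.12, adjusted p = 3.46e-10), with −0.35 in D2 and −1.74 in D4 as its smallest and largest falls. Ivl, which encodes involucrin, a protein of the keratinocyte envelope, had the lowest fold change among the named genes (−2.24 ± 0.25, adjusted p = 5.04e-10), but at a mean of 3.31 CPM it stood under the level required by the rule and was named after its values were seen. Ivl had 1.995, 4.54 and 12.7 CPM at 0.1 nM and 0, 0.831 and 4.55 CPM at 50 nM, so that some libraries at 50 nM had no count of it.

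Both genes of the main collagen IV of basement membranes rose. Col4a1 and Col4a2 encode the chains of collagen IV and lie head to head on chromosome 8 (GRCm39, Col4a1 from 11248423 to 11362826 on the minus strand and Col4a2 from 11362471 to 11499287 on the plus strand), so that their annotated ends overlap. Col4a1 had 395.9, 442.7 and 492.9 CPM at 0.1 nM and 562.8, 721.4 and 928.0 CPM at 50 nM, with no overlap between the doses (log2 fold change 0.69 ± 0.037, adjusted p = 3.23e-21). Col4a2 had 249.0, 291.9 and 337.7 CPM and then 387.1, 552.9 and 766.4 CPM, again with no overlap (0.94 ± 0.049, adjusted p = 1.12e-19). Mock lay at 383.0 to 494.4 CPM for Col4a1 and 235.7 to 285.7 CPM for Col4a2, and at 10 nM the medians were already 666.6 and 517.7 CPM. The rise was seen in each siRNA, from 0.42 in D4 to 0.93 in D3 for Col4a1 and from 0.53 in D4 to 1.31 in D3 for Col4a2.

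Itgb4 (ENSMUSG00000020758, chromosome 11 from 115865333 to 115899239 in GRCm39), the integrin subunit of hemidesmosomes that binds laminin, had the largest rise among the named genes (log2 fold change 2.14 ± 0.23, adjusted p = 5.20e-10). It had 2.63, 4.35 and 7.50 CPM at 0.1 nM and 5.65, 12.8 and 84.4 CPM at 50 nM, and its rise ran from 0.66 in D2 to 4.22 in D4. Lamb3, a chain of the laminin that this integrin binds, had 59.0, 69.9 and 87.3 CPM and then 88.4, 99.3 and 125.2 CPM (0.53 ± 0.036, adjusted p = 1.47e-17). The doses overlapped for Itgb4 and did not overlap for Lamb3. St14 encodes matriptase, a membrane serine protease of epithelia, and had 1.82, 5.60 and 8.11 CPM and then 5.51, 12.3 and 35.9 CPM (1.41 ± 0.13, adjusted p = 2.30e-12). Spint2, an inhibitor of such proteases, had 112.1, 121.1 and 135.8 CPM and then 136.5, 157.9 and 207.0 CPM, with no overlap (0.38 ± 0.030, adjusted p = 1.10e-14).

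Epcam, an epithelial adhesion molecule that marks bile duct cells in liver, had 0.773, 2.56 and 4.38 CPM at 0.1 nM and 2.21, 7.49 and 18.2 CPM at 50 nM (log2 fold change 1.68 ± 0.17, adjusted p = 1.90e-11). Of the 6 cholangiocyte markers tested, 4 were called higher and 1 lower. Krt19 (0.46 ± 0.054) and Sox9 (0.35 ± 0.069) rose with Epcam, whereas Tspan8 fell (−0.54 ± 0.090). The summed level of the 8 markers was 194.8 to 274.6 CPM at 0.1 nM, 209.2 to 324.7 CPM at 50 nM and 225.0 to 249.2 CPM in mock, with Muc1 and Cldn7 below 1 CPM in each. Its part in the rises of Itgb4, Lamb3, St14 and Spint2 was not tested.

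Further rises came from genes of several other roles. Ptpn13, a protein tyrosine phosphatase, had 66.0, 86.9 and 105.1 CPM at 0.1 nM and 106.9, 151.0 and 220.7 CPM at 50 nM (log2 fold change 0.81 ± 0.055, adjusted p = 7.20e-16). Ssr2, a subunit of the translocon-associated protein complex of the endoplasmic reticulum, had 86.7, 98.7 and 115.6 CPM and then 115.1, 140.3 and 179.4 CPM (0.50 ± 0.035, adjusted p = 3.14e-17). The doses did not overlap for Ptpn13, and for Ssr2 they did not overlap once the library scaling of edgeR was applied. Dusp8, a phosphatase of MAP kinases, rose from a median of 26.5 to 49.1 CPM (0.87 ± 0.050, adjusted p = 2.48e-20), and Btg2, an antiproliferative gene and p53 target, from 115.2 to 189.6 CPM (0.77 ± 0.065, adjusted p = 1.44e-12). With D1 alone the rise of Btg2, 0.12, did not pass the test. Bmp4, Cav1, Taf7, Rnf167, Crct1, Eprn and Aass completed the largest rises, with log2 fold changes between 0.74 and 1.06.

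**Figure D3:**
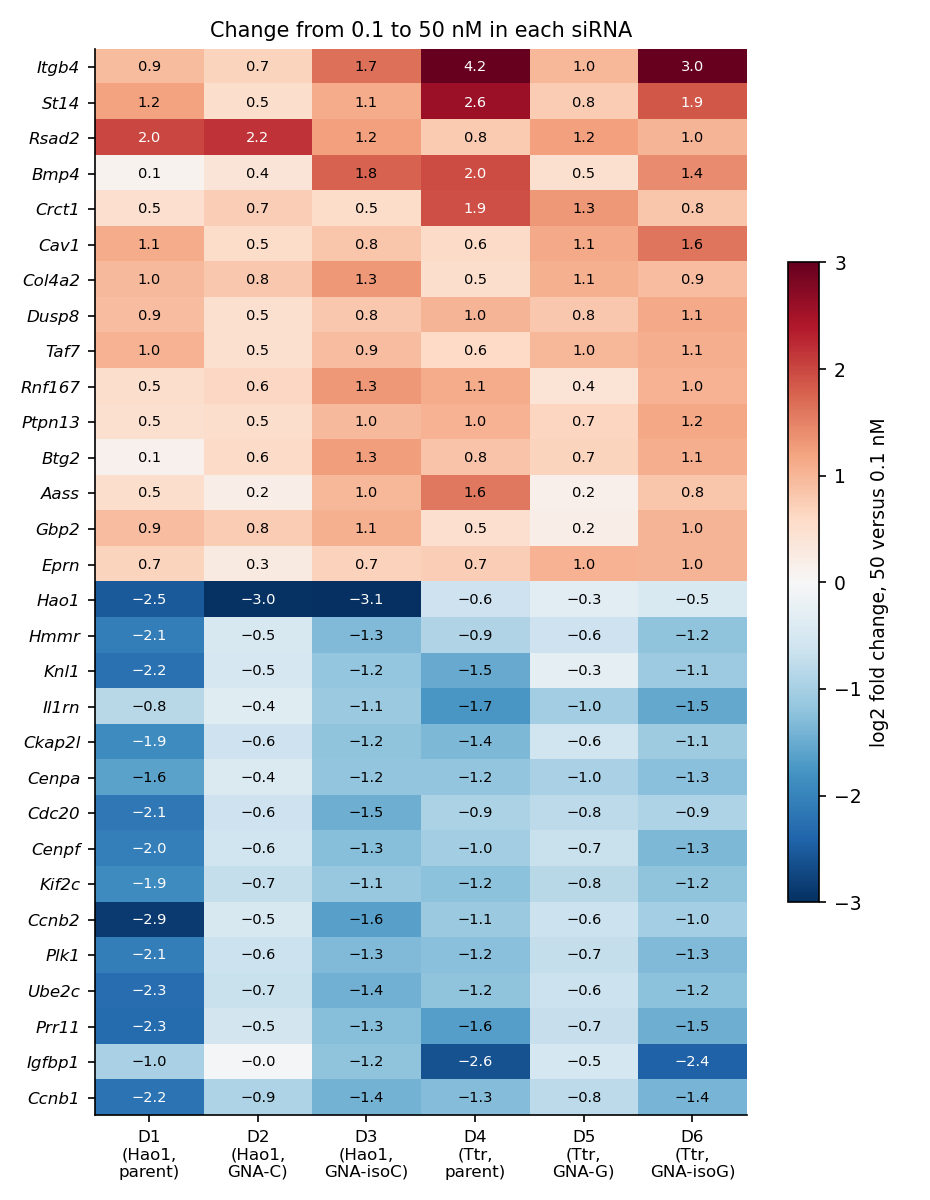
Rows are the 15 genes with the largest rise and the 15 with the largest fall under the rule for named genes, columns are the 6 siRNAs, and each cell holds the log2 fold change of 50 versus 0.1 nM, with the colour scale ending at 3 and −3. Each row has one sign throughout because the rule required it. The columns D2 and D5, the GNA siRNAs, are paler than the parents in most mitotic rows, as for Ccnb1 at −0.92 and −0.78 against −2.21 and −1.30.

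Interferon-response genes are switched on by cells that sense foreign RNA or DNA. They were higher at 50 than at 0.1 nM over the 6 siRNAs together but not with D4. The scatter was wide, and 3 genes were called in both families. Of 35 tested, 25 were called higher, beside 14.8% of all genes, with a median log2 fold change of 0.37. Of the 25, 3 (Rsad2, Gbp2 and Tap1) were called in both families, and of all genes tested 3.38% were called higher in both. Rsad2, the antiviral enzyme viperin, had 33.8, 63.6 and 193.0 CPM at 0.1 nM and 51.9, 168.4 and 482.4 CPM at 50 nM (log2 fold change 1.397 ± 0.22, adjusted p = 2.67e-06). The doses overlapped widely, the highest value of all, 734.2 CPM, came from a 1 nM library, and the mock median was 75.4 CPM. Gbp2, an interferon-induced GTPase, went from a median of 16.9 to 28.9 CPM (0.75 ± 0.12, adjusted p = 5.39e-06), and Tap1, the peptide transporter of antigen presentation, from 17.7 to 25.2 CPM (0.64 ± 0.099, adjusted p = 1.68e-06).

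The mean log2 CPM of the interferon-response list had medians of 4.74, 4.99, 5.07 and 5.17 from the lowest dose to the highest, and of 5.09 in mock. The 0.1 nM libraries thus had a lower median than mock, and between 1 and 10 nM a single member was called, as lower, with a list median of −0.097. Within no siRNA did the libraries of the 2 doses separate. By siRNA, 19 members were called higher with D1, 6 with D3, 3 with D6 and 1 with D2. Of all 11142 genes, 1016, 1051, 1079 and 72 were called higher with D1, D3, D6 and D2. With D4 the list median was −0.096 and 1 member was called, as lower, and with D5 the median of 0.25 came without a call. Without D1 the count was 18 and without D4 it was 30. With ERCC library sizes it was 10, beside 147 called higher of all 11142 genes. Of 13 cytosolic and endosomal RNA sensors, which include interferon-induced genes, 4 were called higher (Zbp1, Dhx58, Tlr3 and Ifih1) and 1 lower. These calls were not shared by the families and were lost with ERCC library sizes, and without D1 or without D2 a single sensor was called higher.

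Other gene lists changed in part, and they are given by counts beside the shares of 14.8% higher and 17.1% lower over all genes. Shared calls stand beside 3.38% of all genes for higher and 4.74% for lower. Counts with ERCC library sizes stand beside 147 higher and 1314 lower of all 11142 genes. Of 23 genes of ATF4 and the integrated stress response, which cells use under amino acid or translation stress, 12 were called lower and 1 higher (median −0.14), and 7 of the 12 were shared. By siRNA, 17 were lower with D3, 13 with D6, 7 with D4 and 3 with D1. Of all 11142 genes, 1318, 1503, 1679 and 1366 were lower with D3, D6, D4 and D1. The ATF4 list medians with D2 and D5 were −0.013 and 0.031. When D3 was left out, 8 of the list were called lower. Phgdh, the first enzyme of serine synthesis, fell from a median of 131.1 to 96.5 CPM (log2 fold change −0.52 ± 0.069, adjusted p = 7.13e-08), and Psat1, the next enzyme, from 246.2 to 187.8 CPM (−0.38 ± 0.049, adjusted p = 3.01e-08). Of 26 NRF2 oxidative stress genes, 15 were called lower and 3 higher (median −0.14), among them Gsr, glutathione reductase, at −0.26 ± 0.035. Of these 15, 2 were shared, and the medians with D2 and D5 were −0.057 and 0.0036. Of 25 cholesterol synthesis genes, 11 were called lower, 5 of them shared. Lss, lanosterol synthase, fell from a median of 220.7 to 167.5 CPM (−0.34 ± 0.038, adjusted p = 2.37e-10), and Insig1, the sterol sensor that retains SREBP, from 277.9 to 202.6 CPM (−0.33 ± 0.055, adjusted p = 5.62e-06). The cholesterol count fell to 7 without D3.

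Genes of metabolism and of hepatocyte identity gave a mixed picture. In glycolysis and gluconeogenesis 13 of 28 were called lower, 5 of them shared, and 3 higher, with Pfkl, the liver phosphofructokinase, at −0.29 ± 0.040 and Ldha, lactate dehydrogenase A, at −0.19 ± 0.027. Fatty acid and triglyceride synthesis had 7 of 21 lower, 3 of them shared. Elovl6, a fatty acid elongase, had −0.53 ± 0.095, with −1.72 in D3 and −0.012 in D4. Of 20 hepatocyte transcription factors, 7 were called lower, 4 of them shared, with Onecut2 at −0.75 ± 0.083 and Hnf4a, a master regulator of hepatocytes, at −0.22 ± 0.040. Of the secreted plasma proteins, 17 of 38 were called higher and 5 lower, 10 of the former shared. The siRNAs differed in this list, with 15 higher and 1 lower with D1 but 3 higher and 14 lower with D6, and medians of 0.11 in the Hao1 and 0.014 in the Ttr family. Of all 11142 genes, 1016 were higher and 1366 lower with D1, and 1079 were higher and 1503 lower with D6. Ahsg, which encodes fetuin-A, rose from 624.9, 892.2 and 1134 CPM to 1077, 1365 and 1779 CPM (0.65 ± 0.049, adjusted p = 2.48e-14), with only a small overlap, and albumin (Alb) rose by 0.13 ± 0.023. Acute-phase and inflammatory genes had 15 of 29 higher and 4 lower, with 3 of the 15 shared. With D1 11 of them were higher and 2 lower, with D4 7 and 9, and with D6 2 and 8. Over all genes D4 had 1218 higher and 1679 lower, and the counts for D1 and D6 are those given above. With ERCC library sizes the plasma protein list had 1 member higher and 5 lower and the acute-phase list 5 lower, so that the direction of both depends on the scaling.

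In the cytochrome P450 and conjugation list 11 of 28 were higher, 1 of them shared, and 1 lower. Ugt2b36, a glucuronosyltransferase, rose (0.58 ± 0.057, adjusted p = 4.02e-12) and Cyp2a5 fell (−0.70 ± 0.11, adjusted p = 2.03e-06). Without D1 only 4 members were called higher, without D2, D3 or D5 7 each, and with ERCC library sizes 2 were higher and 2 lower. The cytoskeleton and dedifferentiation list had 15 of 40 higher and 7 lower, 8 and 3 of them shared, with the actin cross-linker Actn1 at 0.36 ± 0.033 and the tubulin Tubb6 at −0.47 ± 0.057, and with ERCC library sizes 4 were higher and 7 lower. Cytosolic ribosomal protein genes had 17 of 77 lower (median −0.049), with 8 to 27 lower when one siRNA was left out (8 without D2 or D6, 11 without D3 and 27 without D4) and 3 with ERCC library sizes. These calls were not shared by the families, whose medians were −0.096 for Hao1 and −0.0098 for Ttr. With D4 3 members were called higher, beside 1218 of all 11142 genes. Of 9 mitochondrially encoded genes, 4 were higher, and these calls were lost without D3 and with ERCC library sizes. Of 14 bile acid genes, 3 were lower and 1 higher, and the bile salt export pump Abcb11 (−0.34 ± 0.052) and the conjugate exporter Abcc2 (−0.28 ± 0.038) were shared.

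The machinery of RNA interference itself had 7 of 22 genes called higher and 2 lower. Without D3 or D6 4 were called higher, and with ERCC library sizes 2 were called, both lower. Tnrc6a, the GW182 protein that links Argonaute to deadenylation, rose from a median of 145.0 to 166.3 CPM (log2 fold change 0.29 ± 0.036, adjusted p = 4.73e-09). Dicer1, which cuts microRNA precursors, rose by 0.23 ± 0.032 and Ago1 by 0.19 ± 0.030, and all 3 were shared. Ago2, the slicing Argonaute, had a log2 fold change of −0.079 that did not pass the test. Of the remaining lists, heat shock genes had 2 of 20 higher and 6 lower, endoplasmic reticulum chaperones 3 and 6 of 22, proteasome genes 5 lower of 33, lysosome and autophagy genes 8 and 7 of 34, endocytosis and GalNAc receptor genes 7 and 4 of 19, fatty acid oxidation genes 5 and 2 of 23, amino acid and urea cycle genes 3 and 6 of 32, nuclear-encoded respiratory chain genes 6 and 5 of 57, and p53 target genes 7 and 7 of 24. With ERCC library sizes the calls over all genes leaned lower, with 147 higher and 1314 lower of 11142. Beside these, heat shock genes had 1 higher and 2 lower, endocytosis genes 1 and 3, and p53 targets 2 and 6. The lysosome and fatty acid oxidation lists had 3 and 1 lower. In the endocytosis list Eea1, an early endosome tether, fell most (−0.64 ± 0.074, adjusted p = 4.98e-09), with −1.32 in D4 and −0.14 in D2.

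**Figure D4:**
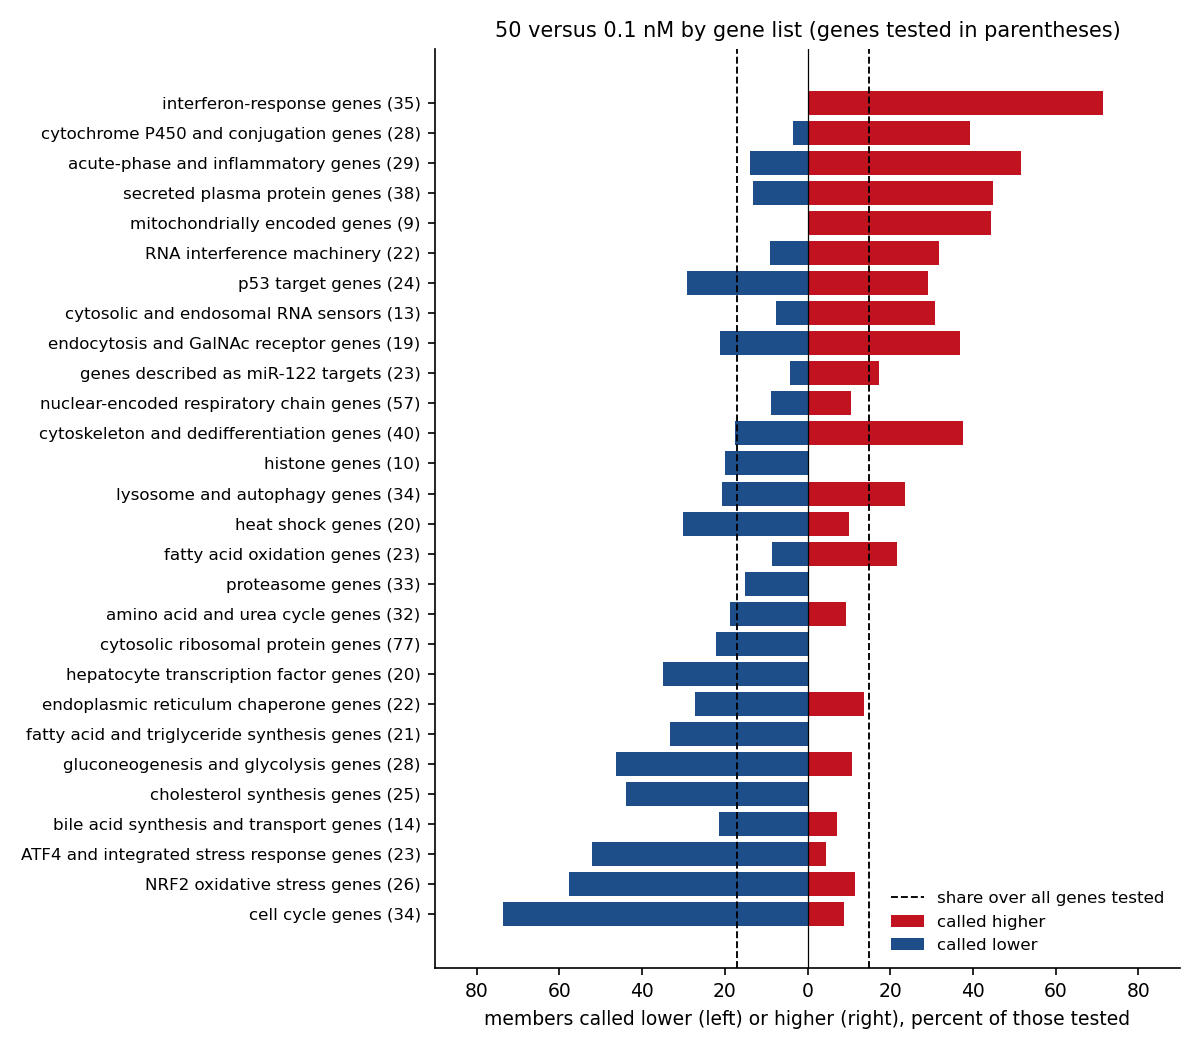
Bars give the percent of tested members of each of 28 gene lists called lower (left, blue) and higher (right, red) at 50 versus 0.1 nM, with the number tested in parentheses and lists ordered by their median log2 fold change; dashed lines mark the shares over all genes tested, 17.1% lower and 14.8% higher. The cell cycle list, with 25 of 34 lower, and the interferon-response list, with 25 of 35 higher, stand at the ends.

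The response differed in size between the siRNAs. Taken one at a time with 4 libraries against 4, D1 had 2382 genes called (21.4%), D3 2369 (21.3%), D4 2897 (26.0%) and D6 2582 (23.2%), whereas D2 had 167 (1.5%) and D5 363 (3.26%). The dose effect differed among the 6 siRNAs for 3787 genes (34.0%). The shared lower genes had medians of −0.40, −0.19 and −0.43 on the log2 scale with D1, D2 and D3, and −0.47, −0.16 and −0.42 with D4, D5 and D6. For the shared higher genes they were 0.35, 0.20 and 0.33 with D1, D2 and D3, and 0.35, 0.23 and 0.36 with D4, D5 and D6. The shared genes were chosen by sign and adjusted p in these same libraries. The sign of the medians was therefore set in part by the choice and is no separate evidence for any one siRNA.

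Chemistry was tested as a difference of dose effects at matched doses, in 3 contrasts that average over the targets, each adjusted over all genes but not over the contrasts. Parents and GNA siRNAs differed for 1183 genes (10.6%), GNA isonucleotide and GNA siRNAs for 1143 (10.3%), and parents and GNA isonucleotide siRNAs for 697 (6.26%). Of the 34 cell cycle genes, 18 had a lower log2 fold change with the parents than with GNA, against 8.02% of all genes. With the isonucleotides 8 were lower than with GNA, against 7.27%. With the parents 6 were lower than with the isonucleotides, against 3.27%. Lower here means a larger fall or a smaller rise. For Ccnb1 the parent minus GNA difference of the log2 fold changes was −0.91 (95% interval −1.28 to −0.53, adjusted p = 0.000409) and the isonucleotide minus GNA difference −0.56 (adjusted p = 0.0333). Its parent minus isonucleotide difference of −0.34 did not pass the test (interval −0.72 to 0.037, adjusted p = 0.355), which leaves a difference of up to −0.72 possible.

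Other named genes were compared in the same way. Itgb4 rose more with the parents than with GNA, by 1.75 on the log2 scale (95% interval 1.25 to 2.25, adjusted p = 6.08e-07), and Epcam by 1.93 (1.31 to 2.55, adjusted p = 4.28e-06). Igfbp1 fell more with the parents than with GNA (−1.51, interval −1.76 to −1.26, adjusted p = 2.18e-11), while its parent minus isonucleotide difference was 0.023 (−0.23 to 0.28, adjusted p = 0.952). For Col4a1 neither parent minus GNA (0.031, interval −0.096 to 0.16, adjusted p = 0.838) nor parent minus isonucleotide (−0.16, −0.28 to −0.029, adjusted p = 0.164) passed the test, where the intervals are not adjusted over genes. Btg2 rose less with the parents than with the isonucleotides (−0.70, −0.85 to −0.54, adjusted p = 1.65e-09). The 2 pairs were unlike, with log2 fold changes of Btg2 of 0.12 in D1 against 1.26 in D3, and 0.85 in D4 against 1.09 in D6. Cdkn1a had no difference past the test in any contrast, with a parent minus GNA interval of −0.15 to 0.076.

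The promoter window from 250 bases before to 50 bases after the start was searched for the CHR letters of the stretches shown above, on both strands. Of the 8612 genes tested that had a promoter in the table, 14.4% held TTTGAA, against 20.2% of all 27025 promoters. Among the shared lower genes with a fold of at least 1.5 the share was 51.8% of 112, among those with a smaller fold 20% of 295, and among the shared higher genes 12.7% of 291. Seen from the letters, the difference was smaller. Of the 1236 tested genes with TTTGAA, 21.8% were called lower, against 16.5% of those without it. Their median log2 fold changes were −0.016 and 0.0026, so most genes with the letters did not fall. Of the 15 largest falls 12 held it, Igfbp1 and all of the mitotic genes but Ccnb1. The NF-Y box CCAAT, which is common in cell cycle promoters, occurred 2 or more times in 31.3% of the 112 genes and in 17.2% of all genes tested. The core of the interferon element ISRE, searched as GAAA, 2 bases of any kind and GAAA, was found in 10 of 20 promoters of interferon-response genes called higher (50%) and in 3.6% of all genes tested. Members of that list that were not called were not counted apart, so the share cannot be tied to the calls. No overlap between the 3 motifs was removed, and the motifs were chosen after the gene groups had been seen.

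**Figure D5:**
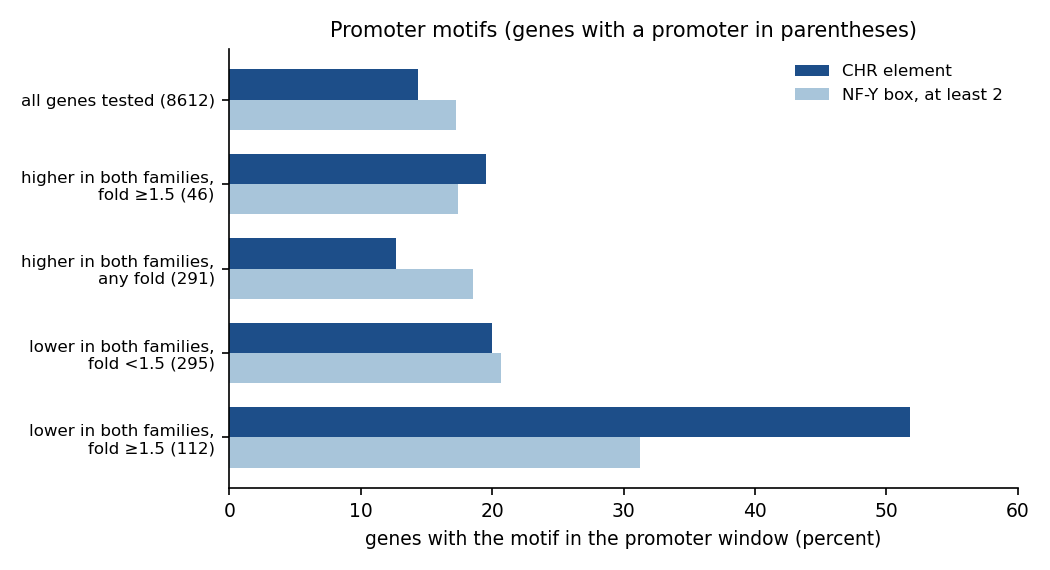
Bars give the percent of promoters (250 bases before to 50 after the start) that hold the CHR letters (dark) or at least 2 CCAAT boxes (light), with the number of promoters in parentheses. Shared lower genes with a fold of at least 1.5 hold CHR in 51.8% of 112 promoters, all genes tested in 14.4% of 8612.

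Matches to the seeds of liver microRNAs in the 3′-UTR were counted as well, since microRNAs use the same Argonaute proteins. Of 11 microRNAs fixed for this, 10 had a mature sequence in the table, and miR-122-5p was not matched. The median log2 fold change of genes with a match lay between −0.0089 and 0.013 for all 10, near that of genes without one. The 2 microRNAs whose matches were most often called higher are shown with the seed in capitals, in RefSeq sequence, the second of them chosen after the collagen IV genes had been seen among the rises.
let-7a-5p: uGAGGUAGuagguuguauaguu
miR-29a-3p: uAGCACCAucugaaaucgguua
Of the genes with a let-7a-5p match, 18.8% were called higher, against 14.7% of genes without one. For miR-29a-3p these shares were 19.4% and 14.3%, and its match was held by 25.7% of the shared higher, 12.8% of the shared lower and 17.2% of all genes with a 3′-UTR. The genes described as miR-122 targets had 4 of 23 called higher and 1 lower, beside 14.8% and 17.1% of all genes, with Vamp3 at 0.38 ± 0.048 the largest of them.

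Other properties of the shared genes were described without a test. The median transcript length was 3692 bases for shared higher and 3864 bases for shared lower genes, against 3398 bases for all genes tested. The median GC content was 51.1%, 48.5% and 49.8%, and the median of the mean level was 50.3, 54.6 and 32.3 CPM.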

How the data were processed

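RNA from PMH was enriched with oligo-dT beads, made into TruSeq Stranded Total RNA libraries and sequenced on a NextSeq500. The authors trimmed and filtered reads with fastq-mcf, placed them on GRCm39 with STAR, and deposited gene counts from featureCounts 2.0.2, not normalized, in 2 sequencing runs per library. The strand setting of the counting is not given in the sources used here, and only reads of sufficient mapping quality were kept, so that close relatives such as Saa1 and Saa2, Ifit3 and Ifit3b, or the Ugt2b and Cyp2a genes may have lost reads to each other. The authors' DESeq2 1.32.0 tables against mock hold fold changes and p-values and were not used.

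The counts of the 2 runs were summed (chi-square per degree of freedom of 0.990 to 1.06, against 1.83 to 6.84 for 72 replicate pairs) and ERCC counts were dropped. All columns were mapped to samples. At 3623954 to 6160626 counts per library, the levels of genes near 1 CPM rest on few counts. Levels are CPM of library totals scaled by edgeR's TMM factors over all 104 libraries. Overlap between doses was judged on log2 CPM (prior count 2) with TMM factors from the 48 libraries of the test. The test was edgeR's quasi-likelihood F test (edgeR 4.0.16 under R 4.3.3, with TMM, filterByExpr and robust glmQLFit) with siRNA as a block and Benjamini-Hochberg adjustment over all 11142 genes. A gene was called at an adjusted p under 0.05, and the SE is the log2 fold change divided by the root of F. Separate fits gave each target family and 10 against 1 nM, and a fit of 12 groups gave each siRNA and the differences between targets and chemistries. The 95% intervals are 1.96 SE wide on each side. Library measures were compared with 100000 permutations within siRNA, adjusted over 4 measures. Promoters, microRNAs and their positions come from RefSeq tables of GRCm38.p6.

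Genes were named if called, called with the same sign in both families, of the same sign in 6 of 6 siRNAs and at a mean of at least 8 CPM (the 15 largest rises and 15 largest falls), with Hao1, Ttr, F12 and Gapdh and up to 4 called members of each of 28 lists and 6 marker lists with the smallest adjusted p. The members and lists were chosen with earlier results of these data known. Genes whose doses did not overlap, Ivl, the other members of lists that are named, and the promoter motifs and miR-29a-3p were added after the values were seen. Some single genes that were tested are not reported here. The alternatives were RLE size factors, ERCC library sizes, DESeq2 1.42.0, other filters and thresholds, each run alone, all 96 siRNA libraries in one fit, a replicate block, and leaving out each library or siRNA. On simulated counts of this comparison, with 200 of 11142 genes changed, the test recovered 100% at a log2 fold change of 1 and 95% at 0.5, and called 6 unchanged genes. The simulation gave each changed gene the same change in all 6 siRNAs, changed far fewer genes than were called here and held no replicate effect. Its rates need not hold for the data. The rest was done in Python 3.11.15 with scipy 1.17.1 and pandas 2.3.3.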

Additional observations from a re-analysis of the deposited data

Results flagged for a closer look

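In 96 checks, of 12 groups of 4 libraries over 8 measures, 2 found a library far from the other three, where chance gives about 1 in 20. Replicate 2 of D5 at 0.1 nM had 73.4 CPM of Ttr, and replicate 4 of D1 at 50 nM had 17340 genes detected. Without the latter 3520 genes were called.

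Of 33 leading genes and targets tested for a difference of the dose effect between the families, 16 differed (edgeR quasi-likelihood test, adjusted p under 0.05). The same test called 24.8% of all genes, and Hao1 and Ttr themselves are among the 16. The values are the log2 fold change in the Hao1 siRNAs minus that in the Ttr siRNAs. The targets themselves differed by −2.38 for Hao1 and 3.13 for Ttr. Genes that rose in both families rose more with the Ttr siRNAs in 7 cases, at −1.65 for Itgb4, −0.78 for St14, −0.77 for Crct1, −0.54 for Bmp4, −0.29 for Ptpn13, −0.25 for Dusp8 and −0.22 for Btg2, and more with the Hao1 siRNAs for Col4a2, at 0.19. Genes that fell in both families fell more with the Hao1 siRNAs at −0.73 for Ccnb2, −0.52 for Cdc20 and −0.44 for Ube2c, and more with the Ttr siRNAs at 1.12 for Igfbp1 and 0.68 for Il1rn. Gapdh, which was lower at 50 nM, differed by −0.12.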

How the results depend on the processing

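Of 2615 values of the 154 named genes under the alternatives, 2510 kept their direction and side of the threshold, 95 kept their direction but no longer passed, 3 newly passed and 7 reversed. All 7 reversals came with ERCC library sizes, at log2 fold changes of −0.036 for Acadl, −0.031 for Klf6, −0.017 for Uqcrfs1, −0.019 for mt-Co1, −0.047 for mt-Nd1, −0.006445 for mt-Nd2 and −0.029 for mt-Nd4. That scaling left 1461 genes called, 147 higher, and 240 shared. At an adjusted p under 0.01, 2355 genes were called, 1076 higher, and 518 were shared. With a fold of at least 1.5, 281 were called, 109 higher and 172 lower, and 143 were shared with that fold in each family. Without D3, D4 or D6 the shared genes were 602, 596 and 578. Without D1, D2 or D5 they were 742, 857 and 952, with as many libraries left out, so the count depended on which siRNA was removed. Without single libraries the range was 3370 to 3653 genes called, 1544 to 1705 higher, 1781 to 1948 lower and 827 to 940 shared. The difference in total counts passed the test without D4 (−360056 counts) and without D6 (−390781 counts), the ERCC share did without D3 (0.13 percentage points), and the mitochondrial share no longer did without D3 (0.163 percentage points). The cause of these shifts was not tested. The labels give no shared source for a replicate number, and the numbers were not taken as pairs. Same-numbered libraries of different groups correlated at a mean of 0.030, and 38 of 264 such pairs were over 0.1. For libraries of other numbers the mean was −0.010, and 57 of 792 pairs were over 0.1. Of 48 libraries, 28 were closest to their own number, so the data hint at a replicate effect that the design does not state. With the replicate block 3615 genes were called, 1679 higher and 1936 lower, and 923 were shared, and no named gene changed its call. Counts per library limit genes under about 5 CPM, where single counts weigh most.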
